A study of Mus musculus with 4 samples.

Results

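The inhibitor of DNA binding genes Id1, Id2, Id3 and Id4 were examined as 4 of the 25827 genes counted by droplet single-cell sequencing in myogenic progenitors (MPs), the descendants of muscle stem cells that rebuild an injured muscle. They were picked as known blockers of the myogenic factor MyoD, by gene symbol (Id1 ENSMUSG00000042745, Id2 ENSMUSG00000020644, Id3 ENSMUSG00000007872, Id4 ENSMUSG00000021379). It was known when they were picked that Id3 leaned higher in both knockout libraries, so their values between genotypes are given as a description and were not tested. The tibialis anterior muscles of 12-week-old mice were taken 6 days after injury with cardiotoxin, a venom toxin that kills muscle fibres, and cells carrying α7 integrin but not CD45, CD31 or Sca1 were sorted. Control mice carried Cre under the Pax7 gene (Pax7Cre), and the others carried that Cre and a floxed miR-501 gene on the X chromosome (Pax7CremiR-501fl/Y, called miR-501KO). All 4 libraries therefore came from mice with Cre. The deletion is limited to cells that have expressed Pax7 or descend from such cells. Which of the other sorted cells keep the gene was not measured here. Each genotype had 2 libraries, each pooled from 3 mice, and replicate 1 and replicate 2 stand for the first and second run of the experiment.

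Id proteins hold the helix-loop-helix that pairs such factors but lack the basic region that grips DNA. They capture the E proteins, the partners that MyoD, myogenin and their relatives need to bind the E-boxes of muscle genes, and so hold cells in an undifferentiated state. Bone morphogenetic protein (BMP) signalling through its Smad proteins is a classic inducer of Id genes, and in muscle it is known to keep progenitors dividing.

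Cells with at least 5000 unique molecular identifiers (UMIs, 1 per captured RNA molecule) and 1000 genes were kept, which left 10450 cells. The kept cells held 71843320 to 114211047 UMIs per library, with a median of 25254 to 34579 per cell. Levels are given as UMIs per 1000000 UMIs (CPM) over the summed cells of a library, and since only the 3′ end of each RNA was read, they were not scaled to gene length. The cells fell into 20 clusters, found without the Id genes, and 7 classes were named from marker genes: quiescent-like (Pax7, Calcr, Chodl), cycling-like (Mki67, Top2a), committed-like (Myog, Mymk, Myh3), macrophage-like, mural-like, Schwann-like and fibroblast-like cells. The last 4 classes are not MPs, so the sort did not remove all other cells. Library miR-501KO replicate 1 stood apart. Clusters 7, 15, 17 and 18 (659, 98, 60 and 32 cells) came to over 90% from it, and 44.9% of its cells were in no named class. Cluster 7 raised markers of both muscle fibres and macrophages, and whether its droplets held more than 1 cell was not tested. Values over all cells and over cells grouped by marker UMIs are given with and without these clusters. Of the named classes only the cycling-like one holds any of them. Only 10 barcodes occurred in more than 1 library.

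The sequences that frame the question are the mature strands of the deleted microRNA and the start regions of the Id genes. The RefSeq table on GRCm38.p6 holds both strands of miR-501, at chrX:7241270-7241291 and chrX:7241307-7241328 on the minus strand. They are shown with the seed, bases 2 to 8, in capitals, because the seed is what pairs with a target.
miR-501-3p: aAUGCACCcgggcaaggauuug
miR-501-5p: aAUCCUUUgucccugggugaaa
In the longest annotated 3′ untranslated region of each of 20997 genes (GENCODE vM21), the letters that pair with the 3p seed, GGTGCAT, occurred in 1293 (6.16%) and in none of the 4 Id genes, whose regions are 563 (Id1), 785 (Id2), 536 (Id3) and 3093 (Id4) bases long. The letters for the 5p seed, AAAGGAT, occurred in 2409 (11.5%), Id4 among them, at base 1833 of its region. That stretch is shown with the match in capitals.
Id4 site: tgatttttaaaaggaAAAGGAT
A match of letters is a description and no evidence of binding. The study also states, from its earlier sequencing, that activated MPs do not express the 5p strand. The microRNA itself was not counted in these libraries, in which no gene named Mir501 is listed.

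Start regions, from 250 bases before to 50 after the gene start, were held by the same RefSeq table for 3 of the 4 genes, Id2, Id3 and Id4. Those of Id3 (chr4:136143572-136143871, plus strand) and Id2 (chr12:25096043-25096342, minus strand) are printed because Id3 had the largest differences among the MP classes and the called differences of Id2 peaked in the cycling-like class. Capitals mark 3 motifs, each searched on both strands. The E-box, CANNTG, is what paired helix-loop-helix factors bind. The letters CAGAC are known from Smad-bound DNA, and so is the longer GC-rich element GGCGCC.
Id3 start: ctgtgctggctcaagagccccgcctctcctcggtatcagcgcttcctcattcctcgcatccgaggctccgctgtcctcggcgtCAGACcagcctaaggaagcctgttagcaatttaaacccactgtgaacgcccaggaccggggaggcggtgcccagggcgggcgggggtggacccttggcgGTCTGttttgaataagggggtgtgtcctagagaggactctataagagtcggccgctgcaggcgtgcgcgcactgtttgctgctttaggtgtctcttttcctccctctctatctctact
Id2 start: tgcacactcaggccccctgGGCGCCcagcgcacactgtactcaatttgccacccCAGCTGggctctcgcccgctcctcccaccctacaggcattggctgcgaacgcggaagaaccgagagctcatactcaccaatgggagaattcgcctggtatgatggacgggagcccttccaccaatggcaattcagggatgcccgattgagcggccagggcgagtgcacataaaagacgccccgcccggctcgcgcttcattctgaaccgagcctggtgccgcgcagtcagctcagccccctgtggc
The Id3 window held CAGAC at 2 places, 167 and 68 bases before the start, and neither of the other motifs. The Id2 window held 1 E-box 196 bases before the start and 1 GGCGCC 231 bases before it. The Id4 window (chr13:48260866-48261165, plus strand) held 1 GGCGCC, 148 bases before the start. Of 32851 start regions of this length, 72.3% held CANNTG, 49.6% held CAGAC and 11.9% held GGCGCC, so the first 2 are common letters. The windows were rich in G and C, at 60.0% for Id3, 63.3% for Id2 and 73.3% for Id4 against a median of 52.7%.

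Id3 was the most abundant of the 4 transcripts, with 86321 UMIs in the kept cells against 29151 for Id2, 21207 for Id1 and 1612 for Id4. Among the MPs it marked the uncommitted end. Its level fell from the quiescent-like through the cycling-like to the committed-like class, whereas Id1 and Id2 stayed within a narrow band and Id4 was scarce. Outside the MPs, Id2 was highest in macrophage-like cells, and Id3 and Id4 were highest in mural-like cells.

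In quiescent-like cells the Id3 level was 451 CPM for Pax7Cre replicate 1, 381 for Pax7Cre replicate 2, 491 for miR-501KO replicate 1 and 664 for miR-501KO replicate 2. In cycling-like cells the libraries, in that order, gave 183, 202, 277 and 230 CPM. Committed-like cells gave 51.7, 43.1, 67.3 and 68.8 CPM. Every library kept this order, and the 3 classes did not overlap. Over the 12 sums of 3 classes in 4 libraries, with the library as a block, Id3 was 2.96 ± 0.0973 (SE) higher on the log2 scale in quiescent-like than in committed-like cells (edgeR quasi-likelihood test, adjusted p = 2.15e-12), with differences within a library of 2.62 to 3.1. It was 1.88 ± 0.0948 higher in cycling-like than in committed-like cells (edgeR, adjusted p = 1.78e-10). It was also 1.07 ± 0.0879 higher in quiescent-like than in cycling-like cells (edgeR, adjusted p = 6.19e-08).

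Such a difference between the classes was common. Of 13551 genes tested, 72% differed between quiescent-like and committed-like cells in either direction and 36.8% were higher in the former. Between cycling-like and committed-like cells 74.3% differed and 38% were higher in cycling-like cells. Between quiescent-like and cycling-like cells 69.4% differed and 35.3% were higher in quiescent-like cells. A call alone therefore does not set Id3 apart, and its size is read beside the median over all genes, 0.02 on the log2 scale for quiescent-like against committed-like cells. With cells grouped by their own Pax7 and Myog UMIs in place of clusters, the Id3 difference was 1.21 (edgeR, adjusted p = 0.00349), or 1.54 without the clusters of miR-501KO replicate 1 (edgeR, adjusted p = 1.27e-08, added after the data were seen). With coarser clusters (Leiden resolution 0.3) quiescent-like exceeded cycling-like cells by 0.66. With the library as a block, the p-values measure only how the class differences vary from library to library.

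**Figure D1:**
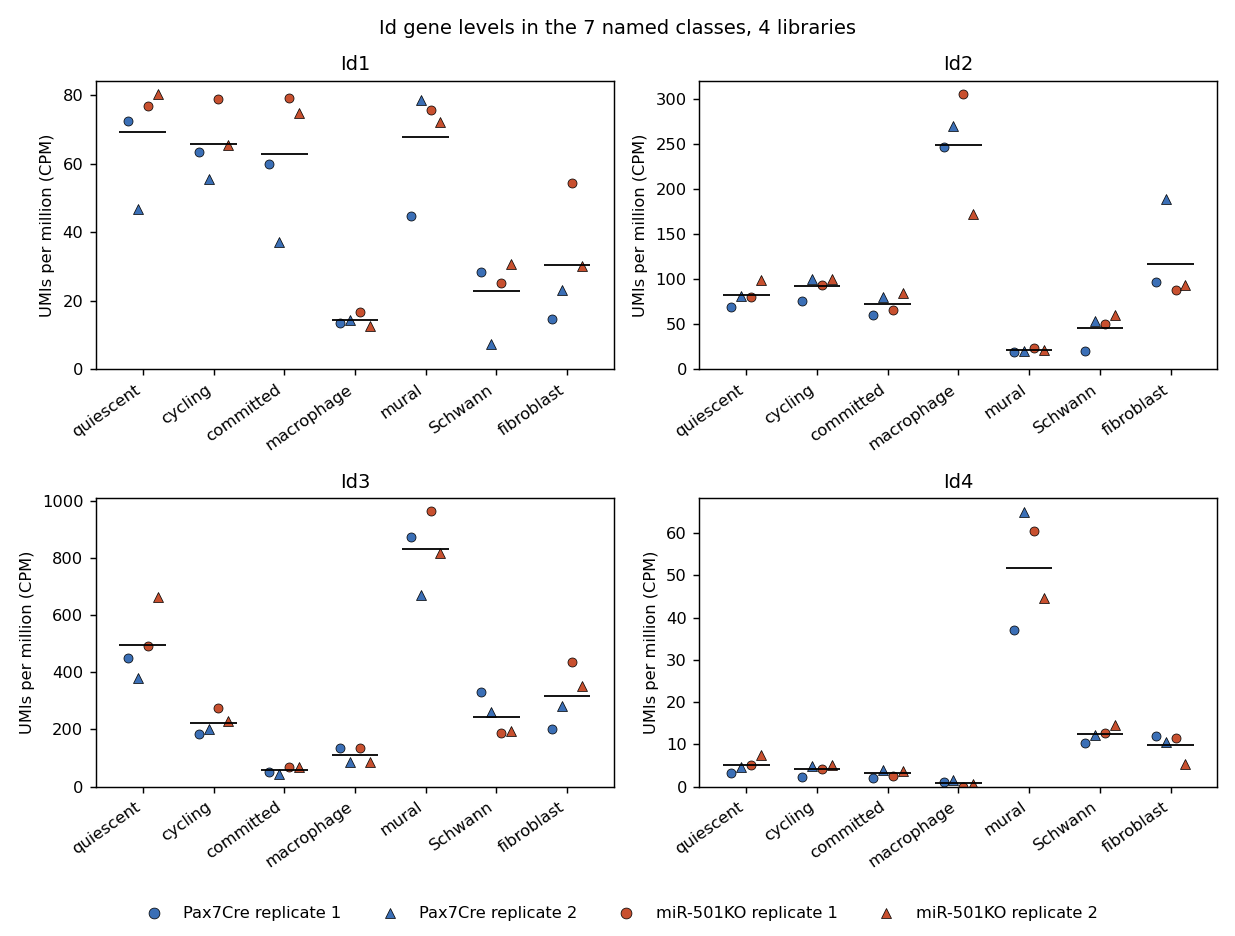
Level of each Id gene (y axis, CPM) in the 7 named classes (x axis), with 1 point per library, circles for replicate 1, triangles for replicate 2, and a bar at the mean of the 4 libraries. Id3 steps down from 497 in quiescent-like to 57.7 in committed-like cells on average, Id2 peaks at 249 in macrophage-like cells, and Id4 peaks at 51.8 in mural-like cells.

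Ordered by the mean over the 4 libraries, Id3 was highest in mural-like cells at 832 ± 124 CPM (SD, n = 4), followed by quiescent-like cells at 497 ± 120. These classes were apart by 670 to 664 only, and Pax7Cre replicate 2 held just 22 mural-like cells. Fibroblast-like (318 ± 101), Schwann-like (244 ± 66.8) and cycling-like (223 ± 40.8) cells followed, each overlapping the class before it. Macrophage-like cells at 111 ± 28.0 and then committed-like cells at 57.7 ± 12.4 each lay below the class before them in every library. Mural cells wrap small vessels, and fibroblast-like cells here also raised tendon genes.

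The share of cells with an Id3 UMI followed the level. With every cell thinned to 5000 UMIs, so that depth was equal in all classes, Id3 was seen in 65.4 to 74.0% of quiescent-like cells per library. For cycling-like cells the range was 50.1 to 65.6%, and for committed-like cells 15.1 to 21.1%. Committed-like cells had the lowest pooled share of the 7 classes (18.0%, against 27.8% in macrophage-like cells), so no class sets a background below them, and how many of their Id3 UMIs are free RNA was not tested. Without thinning Id3 was seen in 79.0% of all cells, against 51.7% with it.

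Within the quiescent-like class Id3 was uneven. Cluster 4 (1042 cells) had 671, 545, 788 and 874 CPM in the 4 libraries, Pax7Cre first, and cluster 2 (1155 cells) had 298, 237, 325 and 303. The 2 clusters did not overlap. The small cluster 16 (83 cells) had 886 CPM over all libraries, and 52 of its cells came from miR-501KO replicate 2, where it had 894. Cluster 2 held 384, 255, 310 and 206 of the cells of these libraries and cluster 4 held 284, 230, 175 and 353, so the mix differed between libraries and was most tilted to cluster 4 in miR-501KO replicate 2, the library with the highest Id3 level in this class. Id1 showed the same contrast in the pooled cells, with 102 CPM in cluster 4 and 41.2 in cluster 2. Of the committed-like clusters, cluster 10, which raised the late genes Myh3 and Myh8, had 40.4 CPM of Id3 and 35.4 of Id2, against 63.8 and 89.1 in cluster 5. Clusters were formed from correlated genes, so these values describe the clusters and were not tested.

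Id2 differed little among the MPs. Its level was 69.3, 81.0, 80.0 and 99.6 CPM in quiescent-like cells, in that same order of libraries. Cycling-like cells had 75.6, 100, 93.3 and 100 CPM. Committed-like cells had 60.2, 80.7, 66.4 and 84.5 CPM. The classes overlapped, yet within each library the cycling-like cells were the highest. The cycling-like cells exceeded the committed-like by 0.26 ± 0.0525 (SE) on the log2 scale (edgeR, adjusted p = 0.000386), higher in 4 of 4 libraries. Quiescent-like cells lay below cycling-like cells, at -0.23 ± 0.0519 (edgeR, adjusted p = 0.00105), lower in 4 of 4 libraries. Quiescent-like and committed-like cells differed by 0.03 ± 0.0542 (edgeR, adjusted p = 0.631). Both calls were lost without the library as a block (edgeR, adjusted p = 0.0905 and 0.135). The third contrast became a call in the other direction for cells grouped by Pax7 and Myog UMIs, at -0.39 (edgeR, adjusted p = 0.00567), and at Leiden resolution 0.3, at -0.15 (edgeR, adjusted p = 0.037).

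Macrophage-like cells carried the most Id2, with 247, 270, 306 and 173 CPM in the 4 libraries, and every library there exceeded every library of the MP classes. The order of means was macrophage-like (249 ± 56.2, SD, n = 4), fibroblast-like (117 ± 48.3), cycling-like (92.2 ± 11.5), quiescent-like (82.5 ± 12.6), committed-like (73.0 ± 11.5), Schwann-like (46.2 ± 17.5) and mural-like (21.1 ± 2.26). Neighbours in this order overlapped, other than committed-like and Schwann-like cells, which were apart by 60.2 to 59.8 only. Thinned to 5000 UMIs, Id2 was seen in 46.1% of macrophage-like cells, 31.4% of cycling-like, 27.1% of quiescent-like and 21.7% of committed-like cells. Mural-like cells had the lowest share, 8.33%.

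Id1 did not separate the MP classes. It measured 72.4, 46.8, 76.7 and 80.4 CPM in quiescent-like cells and 63.3, 55.5, 78.7 and 65.3 in cycling-like cells of the same 4 libraries. In committed-like cells it measured 59.9, 37.0, 79.0 and 74.7. Libraries of one class differed more than the classes did, with Pax7Cre replicate 2 the lowest in all 3. Quiescent-like minus committed-like cells gave 0.01 ± 0.0938 (SE) on the log2 scale (edgeR, adjusted p = 0.899), and the sign varied among libraries, from -0.29 to 0.18. The other contrasts were 0.03 ± 0.0911 (edgeR, adjusted p = 0.791) and -0.01 ± 0.0898 (edgeR, adjusted p = 0.899). At Leiden resolution 0.3, quiescent-like cells had less Id1 than both other classes, by -0.31 against committed-like (edgeR, adjusted p = 0.0114) and -0.40 against cycling-like cells (edgeR, adjusted p = 0.00176).

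Over all classes Id1 averaged 69.1 ± 15.2 CPM (SD, n = 4) in quiescent-like, 67.7 ± 15.5 in mural-like and 65.7 ± 9.64 in cycling-like cells. Committed-like cells averaged 62.7 ± 19.0. Id1 averaged 30.5 ± 17.0 in fibroblast-like, 22.9 ± 10.6 in Schwann-like and 14.3 ± 1.79 in macrophage-like cells. All neighbours in this order overlapped. Thinned shares were 22.3% of quiescent-like, 25.3% of cycling-like and 19.4% of committed-like cells against 4.64% of macrophage-like cells, the lowest of the 7 classes. How much of the last share is free RNA was not tested.

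Id4 was scarce in MPs. In committed-like cells it rested on 43, 51, 25 and 39 UMIs, or 2.13, 4.03, 2.55 and 3.69 CPM, in the order used above. Quiescent-like cells had 3.11, 4.67, 5.10 and 7.45 CPM and cycling-like cells 2.24, 4.82, 4.10 and 5.09. The classes overlapped. Id4 was 0.53 ± 0.161 (SE) higher on the log2 scale in quiescent-like than in committed-like cells (edgeR, adjusted p = 0.00902), higher in 4 of 4 libraries, by 0.05 to 0.83. The call was lost without miR-501KO replicate 1 (0.43, edgeR adjusted p = 0.0587) and without miR-501KO replicate 2 (0.36, edgeR adjusted p = 0.114). It was also lost without the library block (edgeR, adjusted p = 0.111) and at Leiden resolution 0.3 (edgeR, adjusted p = 0.0791), and grouping by Pax7 and Myog UMIs gave -0.012. The cycling-like class was higher than committed-like cells by 0.27 ± 0.152 (edgeR, adjusted p = 0.127) and quiescent-like higher than cycling-like cells by 0.26 ± 0.139 (edgeR, adjusted p = 0.11), neither of which passed.

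In mural-like cells Id4 reached 37.1, 65.0, 60.5 and 44.6 CPM, above every library of every other class. Schwann-like (12.5 ± 1.68, SD, n = 4) and fibroblast-like cells (9.81 ± 3.1) followed. Then came the quiescent-like (5.08 ± 1.80), the cycling-like (4.06 ± 1.28) and the committed-like class (3.1 ± 0.905), each overlapping the class before it. Macrophage-like cells, with 6 Id4 UMIs in all, were lowest at 0.768 ± 0.647. At 5000 UMIs Id4 was seen in 18.9% of mural-like cells, 1.45 to 2.68% of each MP class and 0.29% of macrophage-like cells.

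**Figure D2:**
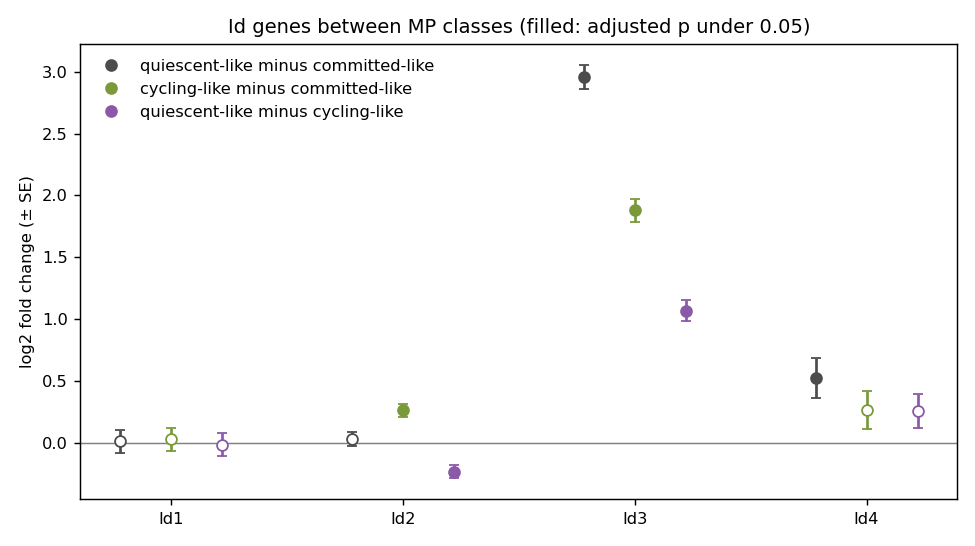
Log2 fold change with its standard error (y axis) of each Id gene (x axis) for the 3 contrasts between MP classes, filled where the adjusted p was under 0.05. All 3 contrasts are filled for Id3, at 2.96, 1.88 and 1.07, and none for Id1, which stays between -0.01 and 0.03.

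Single cells differed in how many Id genes they showed. At 5000 UMIs, none of Id1, Id2 and Id3 was seen in 17.5 to 25.8% of quiescent-like cells per library. The range was 21.3 to 31.6% for cycling-like and 50.2 to 58.0% for committed-like cells. All 3 were seen in 5.03 to 10.5% of quiescent-like and 1.44 to 4.36% of committed-like cells. In each library and MP class, every pair of Id1, Id2 and Id3 was seen together more often than independent detection gives. The excess was thus not particular to 1 pair. Outside the MPs it did not hold throughout, with Id1 and Id3 at 14.5 against 15.1% in mural-like cells of Pax7Cre replicate 1. For Id1 and Id3 in quiescent-like cells the share was 19.0, 12.7, 18.8 and 24.2% of cells against 15.3, 10.1, 15.2 and 20.9%. In committed-like cells it was 5.80, 3.24, 7.84 and 9.45% against 3.53, 2.01, 4.0 and 4.68%. Cells of a library are not replicates, and these shares were not tested.

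The genes that Id proteins act on ran in different directions, with the caution that myogenin and other members of these lists named or formed the classes, so that their differences describe the classes. Of the 3 E protein genes, Tcf3 (0.45 ± 0.0482, SE) and Tcf4 (0.71 ± 0.0476) were higher and Tcf12 (-0.41 ± 0.0523) was lower in quiescent-like than in committed-like cells, on the log2 scale. All stayed within about 1 log2 unit, less than Id3. Tcf4 had 466, 485, 589 and 510 CPM in quiescent-like and 268, 277, 314 and 268 in committed-like cells of the 4 libraries, with no overlap. Against committed-like cells, the cycling-like class had more Tcf3 (0.89 ± 0.0462) and Tcf4 (0.20 ± 0.0473) and less Tcf12 (-0.43 ± 0.0514).

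Of the 4 myogenic regulatory factors, Myf5, the early one, was the only one higher in quiescent-like than in committed-like cells, by 4.27 ± 0.0735 on the log2 scale. Myod1 (-3.58 ± 0.102), Myog (-7.13 ± 0.132) and Myf6 (-2.55 ± 0.501) were lower. The Myf6 difference was uneven, with 2.27, 2.12, 2.79 and 2.89 CPM in quiescent-like against 2.97, 33.8, 21.7 and 5.86 in committed-like cells of the libraries. Myf5 had 412, 348, 383 and 361 CPM in quiescent-like cells and 20.5, 13.4, 17.7 and 18.6 in committed-like cells. Myod1 had 22.4, 24.8, 31.4 and 28.2 CPM in quiescent-like cells, 93.2, 116, 121 and 112 in the cycling-like class and 266, 232, 279 and 376 in the committed-like class. Id3 thus ran with Myf5 and opposite to Myod1 and Myog over these 3 classes, in every library.

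Other inhibitors of basic helix-loop-helix factors mostly sided with Id3. Of 11 listed genes 10 were tested, 7 were higher and 3 lower in quiescent-like than in committed-like cells, with a median of 1.70 against 0.02 over all genes on the log2 scale. Over all genes 36.8% were higher. Musculin (Msc), a repressor that occupies E-boxes, was higher by 3.89 ± 0.062, with 284, 254, 244 and 296 CPM against 18.7, 13.8, 16.1 and 17.1. The Notch target Heyl was higher by 3.25 ± 0.0624, with 163, 180, 188 and 194 CPM against 17.0, 18.7, 16.5 and 16.3. Twist1 (3.12 ± 0.668) and the Notch target Hey1 (2.59) were higher too. Twist1 had at most 0.408 CPM in committed-like cells, so its estimate depends on few UMIs. Hes6, which is known to promote differentiation, was lower (-2.83 ± 0.0589), as were Mdfi (-1.75 ± 0.107) and Bhlhe41 (-0.22). In cycling-like against committed-like cells 7 of these 10 were higher and 2 lower, and in quiescent-like against cycling-like cells 5 were higher and 1 lower. The shares of all genes higher in these contrasts were 38% and 35.3%, in that order.

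Among BMP pathway genes, each role held members that were higher in quiescent-like cells, and all but the intracellular inhibitors also held members that were lower. The counts that follow stand beside 36.8% of all genes higher and 72% called in either direction between quiescent-like and committed-like cells. Of 12 listed ligands 5 passed the filter on low counts, and in quiescent-like against committed-like cells 2 were higher, 1 was lower and 2 were not called. Bmp6 had 18.5, 19.4, 23.6 and 30 CPM in quiescent-like cells against 0.0991, 0, 0.511 and 0.284 in committed-like cells, higher by 6.66 ± 0.366 on the log2 scale, an estimate that depends on the few UMIs of the latter. Bmp4 was higher by 3.68 ± 0.271, with 9.73, 19.5, 21.0 and 32.0 CPM against 1.19, 0.474, 1.84 and 1.98. Bmp8a was lower (-3.81 ± 0.519), with 0, 0.073, 0.159 and 0.076 CPM against 0.793, 1.26, 0.817 and 1.13, so this estimate also depends on few UMIs. Of the 11 receptors and co-receptors 8 were higher and 2 lower, led by the receptor Acvrl1 (3.25 ± 0.269) and by Hjv, the co-receptor hemojuvelin, which was lower (-4.83 ± 0.139). Acvrl1 had at most 0.945 CPM in committed-like cells. Of 4 Smads of the BMP branch 3 were tested, with Smad4 (0.56 ± 0.0447) and Smad5 (0.26) higher and Smad1 (-0.80 ± 0.0517) lower.

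Among the listed intracellular inhibitors of the pathway, 6 of 7 were higher in quiescent-like than in committed-like cells and none was lower. Their median was 0.94 on the log2 scale. Over all genes tested 36.8% were higher, with a median of 0.02. Bambi, a decoy receptor, was higher by 2.27 ± 0.154, Smad6 by 2.0 ± 0.274 and Smad7 by 0.96 ± 0.0953. Of 14 extracellular antagonists 11 were tested, 8 were higher and 3 lower, with a median of 2.01. Chrdl2 (2.57 ± 0.44), Fstl1 (2.45 ± 0.0508) and noggin (Nog, 2.33 ± 0.354) were higher, and chordin (Chrd, -2.99 ± 0.127) and follistatin (Fst, -2.31 ± 0.128) were lower. In committed-like cells Smad6 had at most 0.817 CPM, Chrdl2 0.694 and Nog 0.613, so these estimates depend on few UMIs. Grem1 had no UMI in committed-like cells and only 15 in quiescent-like cells, where miR-501KO replicate 1 stood highest at 0.876 CPM against 0.0649 to 0.152 in the other libraries, so no fold is given. In cycling-like against committed-like cells 6 of the 7 intracellular inhibitors were higher and 1 lower, and 7 of the 11 antagonists were higher and 3 lower. Over all genes 38% were higher in that contrast and 74.3% were called in either direction.

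**Figure D3:**
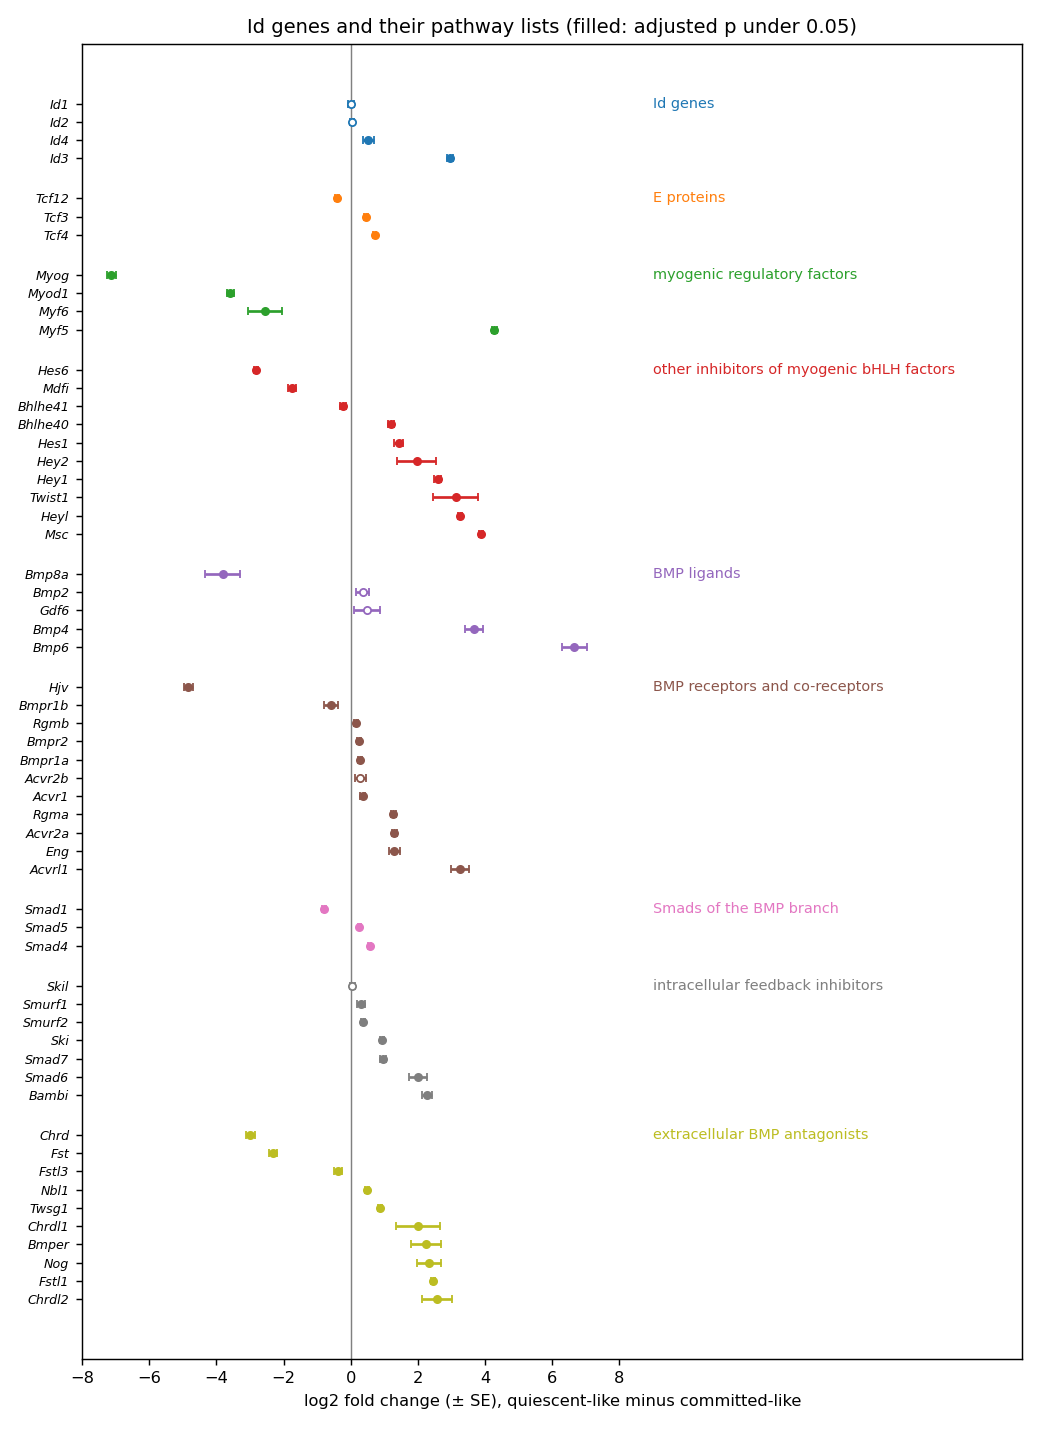
Log2 fold change with its standard error (x axis) of quiescent-like against committed-like cells for the Id genes and the tested genes of their pathway lists (y axis, coloured by list), filled where the adjusted p was under 0.05. Id3 at 2.96 lies near Heyl at 3.25 and Msc at 3.89, Id1 and Id2 lie near 0, and Myog at -7.13 is the lowest gene drawn. Grem1 is left out because it had no UMI in committed-like cells.

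Between genotypes, Id3 and Id1 were higher in both miR-501KO libraries than in both Pax7Cre libraries over all cells and in each MP class, and Id2 overlapped in all of these. Over all kept cells Id3 had 207 and 199 CPM in the Pax7Cre libraries, and the miR-501KO libraries had 321 and 287. Id1 had 57.5 and 45.0 against 75.6 and 67.8 CPM. Id2 had 72.4 and 94.7 against 81.6 and 97.0 CPM, so its groups overlapped. Id4 had 3.57 and 4.75 against 5.35 and 5.55 CPM, without overlap. On the log2 scale these gave 0.56 ± 0.103 (SE) for Id3, 0.46 ± 0.148 for Id1, 0.08 ± 0.143 for Id2 and 0.38 ± 0.167 for Id4. In these libraries fewer cells of a type and less RNA per cell cannot be told apart in a sum over all cells. Committed-like cells, the named class lowest in Id3, made up 16.5 and 15.2% of the Pax7Cre and 9.0 and 11.7% of the miR-501KO libraries. Quiescent-like cells, the MP class highest in Id3, made up 19.6 and 27.2% against 17.6 and 26.0%. The part of this mix in the Id values was not tested.

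The background for these values was wide. In 15.4% of 15725 genes both miR-501KO libraries exceeded both Pax7Cre libraries over all cells, against 3 of the 4 Id genes. The share was 21% in quiescent-like cells, where Id1, Id3 and Id4 did so, 11.9% in cycling-like cells, where Id1 and Id3 did so, and 17.2% in committed-like cells, where Id1 and Id3 did so. Because the choice of genes used this contrast, nothing is read from these counts. Across all genes the edgeR test called 0 of 15725 genes (0%) between genotypes, with 440 at an unadjusted p under 0.05, and DESeq2 called 11.

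Part of the Id3 difference over all cells went with the clusters particular to miR-501KO replicate 1, where Id3 stood at 449 CPM, Id1 at 103, Id2 at 53.8 and Id4 at 4.43. Without them that library had 288 CPM of Id3, 68.6 of Id1, 88.7 of Id2 and 5.58 of Id4. Id3 was then 207 and 199 CPM in Pax7Cre against 288 and 287 in miR-501KO, still without overlap, and the difference was 0.42 on the log2 scale. The ratio of miR-501KO to Pax7Cre in the first run was 1.55 with these clusters and 1.39 without them, and in the second run it was 1.44 in both.

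Within the classes the size of the Id3 difference varied between runs. In quiescent-like cells the ratio was 1.09 in the first run and 1.74 in the second, in cycling-like cells 1.51 and 1.14, and in committed-like cells 1.30 and 1.60. On the log2 scale the fits gave 0.41, 0.38 and 0.48 for these 3 classes. The quiescent-like value was 0.11 without miR-501KO replicate 2 and 0.26 without Pax7Cre replicate 2. For Id1 the ratios were 1.06 and 1.72 in quiescent-like and 1.32 and 2.02 in committed-like cells, and its quiescent-like value of 0.32 fell to 0.018 without Pax7Cre replicate 2. Summed muscle fibre markers moved with these libraries in quiescent-like cells, at 567 and 578 CPM for Pax7Cre against 801 and 1220 for miR-501KO over 10 genes, none of them at 0. In cycling-like cells the fibre markers stood at 294 and 284 against 393 and 365 CPM. The 10 markers of the quiescent-like class itself also differed without overlap in that class, at 1680 and 1940 against 2140 and 2270 CPM. Macrophage markers stood at 33.9 and 29.3 against 46.1 and 23.7 CPM there. The part of these marker levels in the Id values was not tested.

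The same comparison was described by cluster. Of the 12 clusters with at least 20 cells from every library, both miR-501KO libraries exceeded both Pax7Cre libraries for Id3 in 8 (clusters 1, 2, 3, 4, 5, 6, 9 and 10) and lay below both in 2. The 2 were cluster 8, whose cells had a median of 28.1% mitochondrial UMIs, and the Schwann-like cluster 13. Id1 was higher without overlap in 6 of the 12, Id2 in 4 and Id4 in 4. The share of all genes that do so was not taken per cluster, and in the MP classes it was 11.9 to 21%. Because the choice of genes used this contrast, nothing is read from these counts of clusters. Clusters of a library share its mice and its run, so they are not separate evidence.

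**Figure D4:**
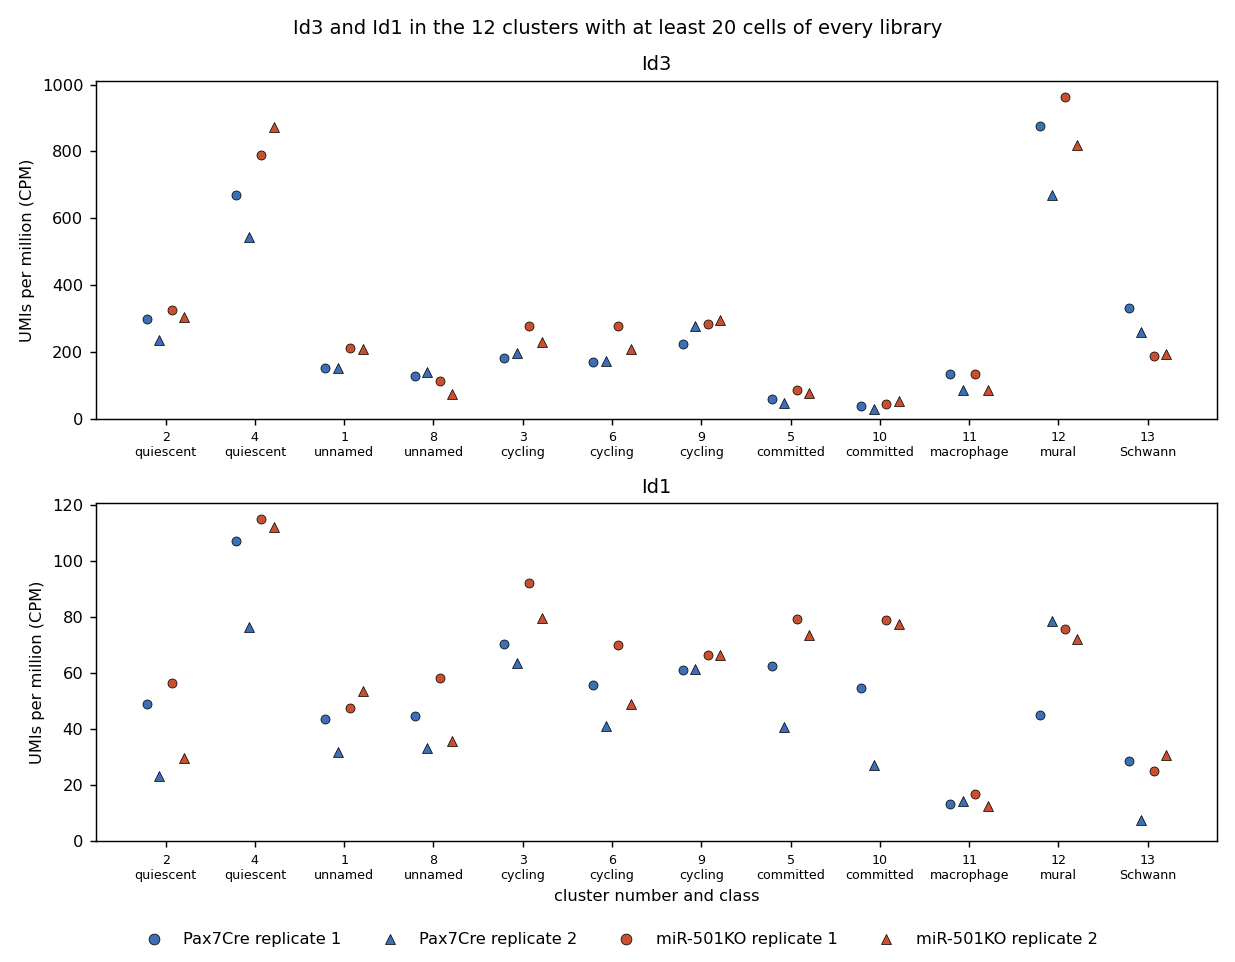
Level (y axis, CPM) of Id3 (upper) and Id1 (lower) in the 12 clusters with at least 20 cells of every library (x axis), with 1 point per library. For Id3, the miR-501KO points lie above the Pax7Cre points in 8 clusters, among them cluster 4 at 788 and 874 against 671 and 545.

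Cells were also grouped by a UMI of Pax7, Myog or Cd74 at 5000 UMIs per cell, Cd74 being a gene of antigen-presenting cells that the study followed in MPs. In cells with Pax7 and no Myog the Id3 level was 283 and 276 CPM in Pax7Cre libraries against 389 and 466 in miR-501KO libraries. In cells with both it was 243 and 162 against 340 and 323. In cells with Myog and no Pax7 it was 104 and 85.0 against 288 and 122. The groups did not overlap in any of the 3. The share of all genes that do so was not taken for cells grouped by UMIs. Because Id3 was known to lean this way, nothing is read from the lack of overlap. Without the clusters of miR-501KO replicate 1 that library stood at 389, 242 and 135 CPM. The cells with both UMIs then overlapped between genotypes, at 243 and 162 against 242 and 334, and the other groups did not.

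Cells with Myog and Cd74 numbered 37 and 8 in Pax7Cre and 660 and 21 in miR-501KO, so nearly all came from miR-501KO replicate 1. Their Id3 level was 79.5 and 154 CPM for Pax7Cre against 455 and 61.2 for miR-501KO, which rested on 78, 45, 6995 and 14 UMIs. The high value was that of 1 library, and the other miR-501KO library was the lowest of the 4. Of the 45 Id3 UMIs of Pax7Cre replicate 2, 41 came from 1 of its 8 cells, so its value and its rank rest on that cell. Without its own clusters, miR-501KO replicate 1 kept 27 of these cells, with 73.7 CPM of Id3, 120 of Id2 and 73.7 of Id1. Id3 was then lower in both miR-501KO libraries, at 73.7 and 61.2 CPM against 79.5 and 154 for Pax7Cre. These values rest on few cells and were not tested. With all clusters kept, Id2 ran the other way in these cells, at 119 and 171 against 55.9 and 459 CPM, and Id1 stood at 36.7 and 10.3 against 105 and 21.8. Of the 105 Id2 UMIs of miR-501KO replicate 2, 35 came from 1 cell. In cells with Myog and no Cd74, Id3 was 122 and 94.1 CPM for Pax7Cre against 168 and 147 for miR-501KO, or 150 and 147 without those clusters. These groups did not overlap, but the share of all genes that do so in such cells was not taken.

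**Figure D5:**
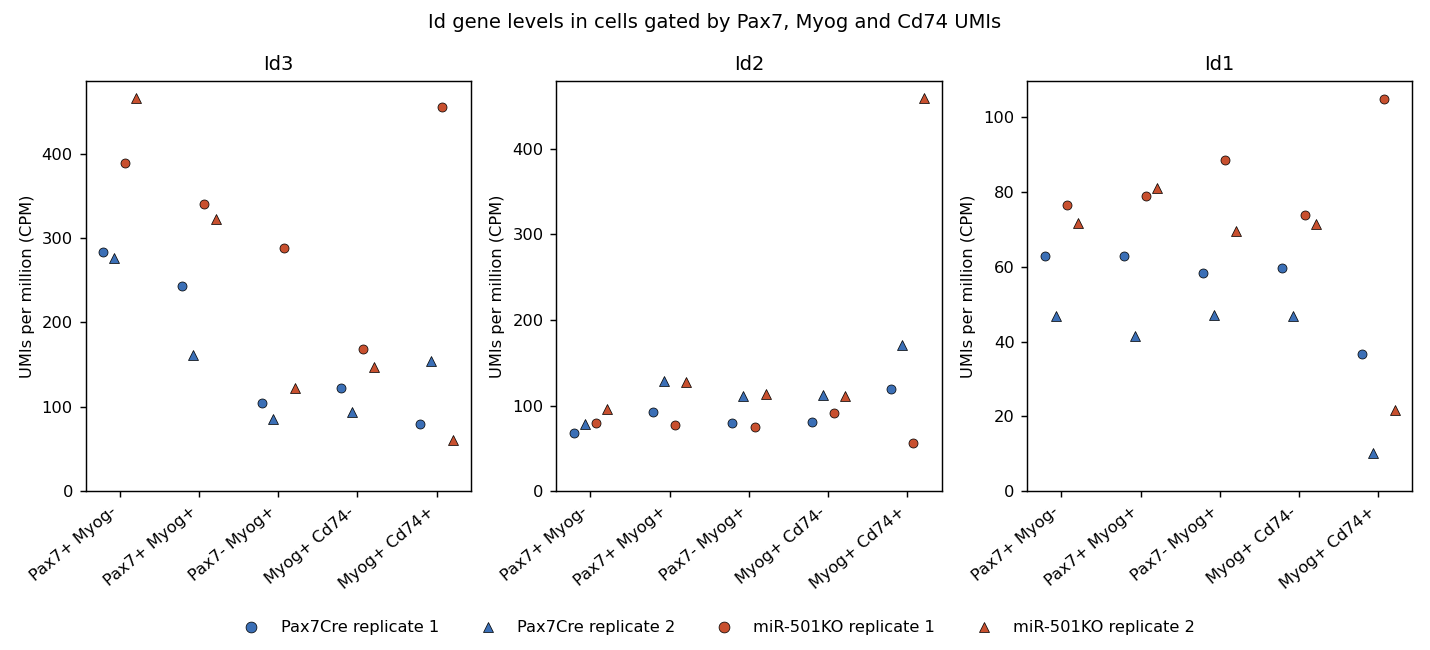
Level (y axis, CPM) of Id3, Id2 and Id1 in cells grouped by the presence of a Pax7, Myog or Cd74 UMI after thinning (x axis), with 1 point per library. In Myog+ Cd74+ cells miR-501KO replicate 1 stands apart at 455 for Id3, while the other miR-501KO library is at 61.2.

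The genes whose pattern was most like that of each Id gene were ranked over 25 sums of a class in a library, each of at least 20 cells, by Pearson's r of log2(CPM + 1) among 11743 genes. Nearest to Id3 were Sntb2 (0.945), Tns2 (0.943), Rem1 (0.935), Fam20a (0.930) and Itpripl2 (0.930). Nearest to Id2 were Evi2a (0.939), Tnfrsf1b (0.936), Frrs1 (0.929), Il18 (0.925) and Apobec3 (0.925). Nearest to Id4 were Tbx3 (0.966), Septin7 (0.962), Spry4 (0.952), Kitl (0.951) and Gng11 (0.949), and nearest to Id1 were Marchf5 (0.864), Nbl1 (0.859), Glce (0.849), Yars (0.848) and Ncs1 (0.839). Among the Id genes themselves r was 0.712 for Id3 and Id4, 0.335 for Id1 and Id4, 0.324 for Id1 and Id3, -0.424 for Id1 and Id2, -0.567 for Id2 and Id3 and -0.879 for Id2 and Id4. The points share libraries and depth, and these values only describe the pattern over classes.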

How the data were processed

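Droplet libraries were made with 10x Genomics 3′ chemistry, and the authors deposited raw UMI counts for every gene and barcode. Cell Ranger is the counter, per the file headers in version 6.0.2, which is not the one in the study's methods, and the submitters' processing notes name the build GRCm39. The labels call the libraries both single-nucleus and single-cell, and the cell number that the stated filter left here differs from the study's. No normalization had been applied.

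All 16519 barcodes were filtered to cells with at least 5000 UMIs and 1000 genes. Per the labels doublets were excluded at the sort, which does not remove droplets that hold more than 1 cell, and no doublet caller was run. Clustering in scanpy 1.11.5 used 2000 variable genes without the Id genes, 30 principal components, 15 neighbours and Leiden resolution 0.5. A class needed at least 3 markers raised 1.5-fold. Counts were summed per library and class and tested in edgeR 4.0.16 (TMM, quasi-likelihood, low-count filter, Benjamini-Hochberg over all genes, threshold 0.05) in R 4.3.3, after a check on simulated data. Class contrasts had the library as a block, and genotype fits had none. DESeq2 1.42.0, other size factors, filters, clusterings and left-out libraries were alternatives. Shares of cells were taken after thinning to 5000 UMIs. Sequences came from RefSeq (GRCm38.p6) and GENCODE vM21, and no coordinates were joined to the counts.

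Replicate numbers name the run. Deviations of same-numbered libraries correlated at 0.231 over all cells at 0.0349 over quiescent-like, 0.000771 over cycling-like and -0.161 over committed-like sums. Named pathway genes were those with the largest change in each list that moved the same way in every library, up to 3 per direction and contrast, with all E proteins and myogenic factors, and the 5 nearest genes per member. Members and lists were chosen with earlier results of these data known.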

Additional observations from a re-analysis of the deposited data

Results flagged for a closer look

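Among classes with at least 3 UMIs of the gene in every library, the genotype difference of an Id gene, computed within each run as miR-501KO minus Pax7Cre CPM, had one sign in both runs of one class and the other sign in both runs of others in 3 places. Id3 in Schwann-like cells was lower in miR-501KO, by -143 CPM in the first run and -66.0 in the second, while it was higher in both runs in the 3 MP classes and in mural-like and fibroblast-like cells. Id2 in fibroblast-like cells was lower by -9.10 and -95.9 CPM, while it was higher in both runs in mural-like, Schwann-like, quiescent-like and committed-like cells. Id4 in fibroblast-like cells was lower by -0.30 and -5.25 CPM, while it was higher in both runs in quiescent-like, cycling-like and Schwann-like cells. Some of these Id4 differences were slight. The ratio was 0.975 in the first run of fibroblast-like cells and 1.06, or 0.27 CPM, in the second run of cycling-like cells. The Schwann-like values rest on 23, 58, 39 and 75 cells and the fibroblast-like values on 19, 11, 18 and 97 cells of the 4 libraries. Whether the effects differ between the classes was not tested.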

How the results depend on the processing

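With 2 libraries per genotype, 1 of them apart from the rest, and few Id4 UMIs, depth limits what can be said of Id4 and of the classes outside the MPs, and Id4 also moved with the grouping of cells. The 3 Id3 class contrasts kept their direction and call in all alternatives, left-out libraries included, and apart from those stood at 1.21 to 3.02, 1.79 to 1.95 and 0.66 to 1.17 on the log2 scale. The replicate block, which pairs the libraries of a run, left 0 genes called between genotypes (873 at an unadjusted p under 0.05) and gave 0.56 for Id3, 0.48 for Id1, 0.087 for Id2 and 0.39 for Id4 over all cells. Within classes it raised the genes called from 2 to 63 in quiescent-like and from 0 to 41 in cycling-like cells, and left 0 in the committed-like class.

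Among class contrasts, all on the log2 scale, Id1 changed sign often. Quiescent-like minus committed-like cells gave -0.00094 with RLE size factors, -0.019 without a filter on low counts, -0.0021 without the library block, -0.033 at no more than 10% mitochondrial UMIs, -0.31 at Leiden resolution 0.3 and -0.19 with cells grouped by Pax7 and Myog UMIs. Cycling-like minus committed-like cells gave -0.014 without the library block and -0.013 with the Id genes used for clustering. Quiescent-like minus cycling-like cells gave 0.012, 0.0018 and 0.057 without the block, at resolution 1.0 and with the Id genes used for clustering, and -0.40 at resolution 0.3. For Id2, quiescent-like minus committed-like cells gave -0.0024 without a filter, -0.0034 at the mitochondrial limit, -0.15 at resolution 0.3 and -0.39 with grouped cells, and without the block the other contrasts lost their calls at 0.25 and -0.22. For Id4, quiescent-like minus committed-like cells lost the call without the block (0.57) and at resolution 0.3 (0.33) and gave -0.012 with grouped cells, while quiescent-like minus cycling-like cells gained it with the Id genes used for clustering (0.37). Grouping cells and leaving out the clusters of miR-501KO replicate 1 together, chosen after seeing the data, gave -0.064 for Id1, -0.42 for Id2, 1.54 for Id3 and 0.12 for Id4. The cause was not tested.

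Leaving out 1 library in turn gave -0.11 to 0.099, -0.073 to 0.071 and -0.10 to 0.077 for the cycling-like minus committed-like, quiescent-like minus committed-like and quiescent-like minus cycling-like contrasts of Id1. It gave -0.025 to 0.086 for quiescent-like minus committed-like cells of Id2 and 0.36 to 0.69 of Id4, and 0.16 to 0.38 for quiescent-like minus cycling-like cells of Id4, called without Pax7Cre replicate 2. Between genotypes it gave 0.30 to 1.04 for Id1 and 0.34 to 0.65 for Id3 in committed-like cells, 0.018 to 0.71 for Id1 in quiescent-like cells and -0.036 to 0.996 for Id4 in cycling-like cells. Over all cells it left 0 to 3 genes called, the 3 without Pax7Cre replicate 2, and DESeq2 called 11. Within classes it left up to 218 called in quiescent-like cells (without miR-501KO replicate 2), 105 in committed-like cells (without Pax7Cre replicate 1) and 43 in cycling-like cells (without Pax7Cre replicate 2). The genotype difference of Id3 was 0.42 over all cells without the clusters of miR-501KO replicate 1 and 0.29 in committed-like cells at 2000 UMIs or more. Without thinning the shares of cells with an Id1, Id2, Id3 or Id4 UMI were 52.3, 62.0, 79.0 and 10.2%.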

Other observations

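Of the clusters in no named class, cluster 19, whose 21 cells raised endothelial genes such as Cdh5 and Pecam1, had the highest Id1 level of any cluster, 474 CPM, with 672 CPM of Id3. Cluster 7, all of it from miR-501KO replicate 1, had 470 CPM of Id3, 106 of Id1 and 53.6 of Id2, and an Id3 UMI was seen in 90.3% of its 659 cells at 5000 UMIs (95% Wilson interval 87.8 to 92.3%, counting error only). Cluster 1, led by Spp1 and Mme with 1992 cells, had 152 and 151 CPM of Id3 in Pax7Cre libraries against 213 and 208 in miR-501KO libraries. These clusters were singled out after their values were seen, and the values were not tested.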
